A study of Rattus norvegicus with 12 samples.

Results

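Meningeal fibroblast markers are transcripts used to recognise the fibroblasts of the meninges, the membranes that wrap the brain. The 10 genes described here (Dcn, Lum, Ogn, Fmod, Mgp, Slc6a13, Slc22a6, Slc13a4, Crabp2 and Aldh1a2) were chosen by symbol, and every probe set that the array annotation assigns to exactly 1 of them was taken. All 10 genes were on the array, with 13 probe sets, among 14217 genes that have a probe set of their own. Ogn had 4 probe sets and the other 9 genes had 1 each. All 13 probe sets passed the filter on low values and all 10 genes were tested.

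Expression was measured on Affymetrix-type rat arrays in total RNA from the brains of 12 rats. The animals were male, of the Sprague-Dawley strain and 8 weeks old, and the left hemisphere was used. In 7 rats (MCAO) the middle cerebral artery was occluded, a surgical model of ischemic stroke, and 5 rats (Sham) had a sham operation. Tissue was taken 24 h after reperfusion. The labels name no side of occlusion and no dissection of cortex, striatum or meninges, and each rat gave 1 array. Values are log2 signals as deposited, and an adjusted p is from limma with Benjamini-Hochberg adjustment over all 12153 genes tested, with a threshold of 0.05.

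Fibroblasts of the pia and arachnoid lay down the collagens and small proteoglycans of the brain's surface and of the sheaths of larger vessels. Small leucine-rich proteoglycans such as decorin bind collagen fibrils and growth factors. The arachnoid layer also carries organic anion, amino acid and sulfate transporters and so takes part in the barrier between blood and cerebrospinal fluid. Meningeal cells are a main source of retinoic acid for the brain, which is made by retinaldehyde dehydrogenases and carried inside cells by binding proteins. None of the 10 transcripts is confined to these cells. Mgp is also known from vascular cells, and several of the transporters are known from choroid plexus. In RNA of a whole hemisphere, fewer cells of a type and less RNA per cell cannot be told apart.

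The 10 transcripts did not move as a block. Mgp, Crabp2 and Dcn rose in MCAO, Slc22a6, Fmod and Slc6a13 fell, and Ogn, Slc13a4, Aldh1a2 and Lum did not pass the test. The share of all tested genes that passed in this comparison was 44.3%, with 22.2% higher and 22.1% lower. Among the 6339 genes that varied between arrays (SD over the 12 arrays of at least 0.01), as all 10 did, it was 69.3%, with 35.2% higher and 34.2% lower. The 6 of 10 that passed therefore lie near this background. The median log2 change over the 10 genes was -0.17, against 0.03 over all varying genes. Their median absolute change was 0.49, against 0.29 over all varying genes.

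Promoter sequences are shown for 4 genes with changes in opposite directions, Crabp2 and Aldh1a2 (higher mean in MCAO) and Fmod and Ogn (lower mean in MCAO). They come from RefSeq (GRCr8 build) and span 250 bases before to 50 bases after the gene's start, 5′ to 3′ on the gene's strand. Of the 10 genes, 6 were found in this table. The windows are chr2:175714612-175714911 on the plus strand for Crabp2, chr8:80758391-80758690 on the plus strand for Aldh1a2, chr13:48045317-48045616 on the plus strand for Fmod and chr17:15258946-15259245 on the minus strand for Ogn. Capitals mark matches, on either strand, to the letters AGGTCA or AGTTCA (half-sites of retinoid receptors), TGANTCA (AP-1), GGGCGG (GC box), CCAAT or TATAAA.
Crabp2: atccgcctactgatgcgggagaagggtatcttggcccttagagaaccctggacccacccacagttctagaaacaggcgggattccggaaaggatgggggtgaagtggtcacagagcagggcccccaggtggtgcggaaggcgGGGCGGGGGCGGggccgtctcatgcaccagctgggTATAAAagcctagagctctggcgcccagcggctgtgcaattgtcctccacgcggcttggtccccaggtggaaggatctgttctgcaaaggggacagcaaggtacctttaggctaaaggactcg
Aldh1a2: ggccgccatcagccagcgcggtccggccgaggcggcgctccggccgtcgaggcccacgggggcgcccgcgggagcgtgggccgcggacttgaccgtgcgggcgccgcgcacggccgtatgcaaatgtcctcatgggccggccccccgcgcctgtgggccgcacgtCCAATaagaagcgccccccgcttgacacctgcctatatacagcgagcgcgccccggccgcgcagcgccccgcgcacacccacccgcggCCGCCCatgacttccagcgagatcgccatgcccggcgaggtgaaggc
Fmod: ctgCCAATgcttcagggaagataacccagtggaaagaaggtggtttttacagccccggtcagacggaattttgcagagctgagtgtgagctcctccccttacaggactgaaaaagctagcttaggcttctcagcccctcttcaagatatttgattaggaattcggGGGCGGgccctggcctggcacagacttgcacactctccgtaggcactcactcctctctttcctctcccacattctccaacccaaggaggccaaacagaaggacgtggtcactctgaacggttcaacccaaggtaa
Ogn: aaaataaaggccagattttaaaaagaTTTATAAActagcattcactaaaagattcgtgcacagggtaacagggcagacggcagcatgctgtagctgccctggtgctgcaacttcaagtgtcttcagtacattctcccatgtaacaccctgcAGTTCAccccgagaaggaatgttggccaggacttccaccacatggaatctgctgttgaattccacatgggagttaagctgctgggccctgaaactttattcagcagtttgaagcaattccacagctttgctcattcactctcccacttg

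In these windows AGGTCA and TGANTCA had no match in any of the 6 promoters found. Among all 33469 promoters of the same length, 16.2% held AGGTCA and 7.33% held TGANTCA. Crabp2 had 2 adjacent GGGCGG matches and a TATAAA match 73 bases before its start. Aldh1a2 had a CCAAT match 85 bases before its start and a GGGCGG match just after it. The Fmod window held GGGCGG 85 bases before the start and CCAAT near its far end. In Ogn the AGTTCA match lay 99 bases before the start, and 2 overlapping TATAAA matches on opposite strands lay further upstream. GGGCGG was present in 4 of the 6 promoters and in 33.1% of all promoters. CCAAT was present in 4 of 6 and in 37.5% of all, TATAAA in 2 of 6 and in 14.2% of all, and AGTTCA in 2 of 6 and in 14.5% of all. These matches are descriptions of the letters only.

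Of the matrix genes, Mgp (Entrez Gene 25333) had the largest change. It encodes matrix Gla protein, a secreted protein that keeps soft tissue from calcifying and binds bone morphogenetic proteins. Its log2 signal was 8.80, 8.79, 8.85, 9.26 and 9.35 in the 5 Sham arrays. In the 7 MCAO arrays the lowest was 9.89, the median 10.52 and the highest 11.05. All MCAO arrays lay above all Sham arrays, which held for 17.9% of varying genes. The mean rose from 9.01 ± 0.27 (SD, n = 5) to 10.50 ± 0.44 (SD, n = 7), a 2.81-fold difference (log2 change 1.49 ± 0.22, SE; limma adjusted p = 0.00134). A rise of at least 2-fold was seen in 3.47% of varying genes. Mgp was the only one of the 10 genes whose groups did not overlap, whereas 34.1% of varying genes had groups that did not overlap in either direction.

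Dcn (Entrez Gene 29139) encodes decorin, a proteoglycan that binds collagen fibrils and transforming growth factor beta. The Sham arrays read 8.07, 8.05, 8.09, 8.27 and 8.23. In MCAO the values ran from 8.24 through a median of 8.74 to 9.24. Of the 7 MCAO arrays 6 lay above every Sham array, and MCAO 2 lay within the Sham range. The change was 1.53-fold (0.61 ± 0.17, SE; limma adjusted p = 0.0147).

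Fmod (Entrez Gene 64507), which encodes the collagen-binding proteoglycan fibromodulin, went the other way. Its signal was 7.35, 7.30, 7.57, 7.42 and 7.54 in Sham. The MCAO arrays had a lowest value of 6.71, a median of 6.96 and a highest value of 7.34. MCAO 4 gave that highest value and lay within the Sham range, and the other 6 lay below all Sham arrays. The mean fell by 0.48 on the log2 scale (SE 0.11, limma adjusted p = 0.006), so that Sham was 1.40-fold higher.

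Ogn (Entrez Gene 291015) encodes osteoglycin, also called mimecan, another proteoglycan of the same family. On its strongest probe set the Sham values were 8.77, 8.93, 8.96, 9.02 and 9.47. The MCAO values ran from 8.10 through 8.49 to 9.22. MCAO 4 had the highest value and was the only MCAO array within the Sham range. The change was -0.50 ± 0.19 (SE) and did not pass (limma adjusted p = 0.0565). Without MCAO 4 it was -0.61 and passed (limma adjusted p = 0.00764), and it also passed after quantile normalization (limma adjusted p = 0.0481).

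The other 3 Ogn probe sets gave log2 changes of -0.31 ± 0.19, -0.27 ± 0.17 and -0.44 ± 0.14 (SE). In a fit of all 17238 single-gene probe sets the last of these passed (limma adjusted p = 0.0302), and the other 3 Ogn probe sets did not. All 4 thus pointed the same way, and MCAO 4 was the highest of the 7 MCAO arrays on each. They measure transcripts of the same gene in the same RNA and are not independent.

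Lum (Entrez Gene 81682) encodes lumican, a proteoglycan needed for regular collagen fibrils. Its values were 7.45, 7.54, 7.57, 7.61 and 7.69 in Sham. In MCAO they ran from 7.31 through 7.45 to 7.68. The groups overlapped, with 4 MCAO arrays inside the Sham range and 3 below it. The change was -0.07 (95% confidence interval -0.23 to 0.09, limma adjusted p = 0.448). Dcn and Lum are neighbouring genes in the GRCr8 annotation.

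**Figure D1:**
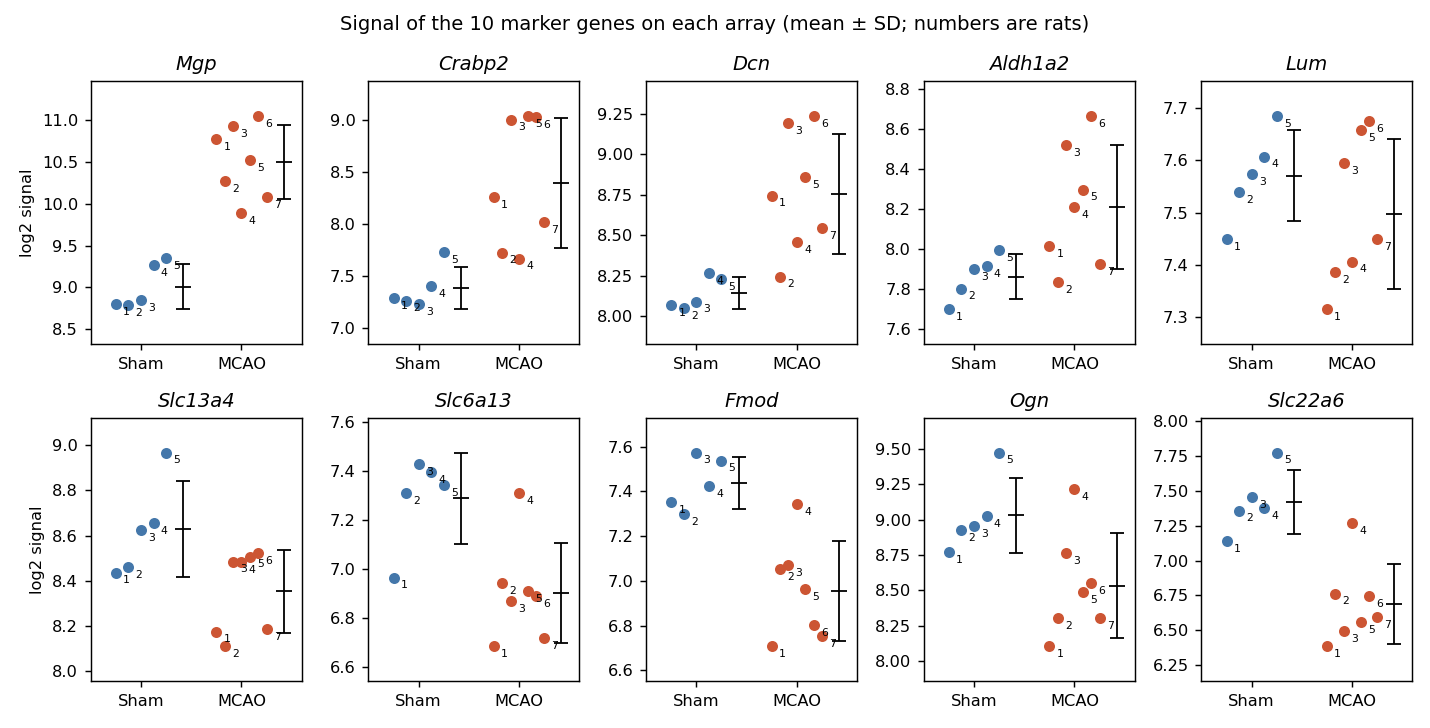
Log2 signal (vertical axis, a separate scale for each gene) of each of the 10 marker genes in the 5 Sham arrays (blue) and the 7 MCAO arrays (orange). Small numbers are the rat numbers, and black bars show mean ± SD. Mgp is the gene whose groups do not overlap, and MCAO 4 is the top MCAO array for Slc6a13, Fmod, Ogn and Slc22a6.

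The transporter genes had lower means in MCAO. Slc22a6 (Entrez Gene 29509) encodes the organic anion transporter OAT1, which takes up many drugs and metabolites. Sham arrays read 7.14, 7.36, 7.45, 7.37 and 7.77. MCAO arrays had a lowest value of 6.39, a median of 6.60 and a highest value of 7.27, again in MCAO 4. All but MCAO 4 lay below every Sham array. The mean fell from 7.42 ± 0.23 (SD, n = 5) to 6.69 ± 0.29 (SD, n = 7), so that Sham was 1.66-fold higher (log2 change -0.73 ± 0.15, SE; limma adjusted p = 0.00442). Only 3 of the 7 MCAO arrays were above the filter value of 6.61, so the gene passed the filter through its Sham arrays. In the fit with no filter on low values the adjusted p in limma was 0.005.

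Slc6a13 (Entrez Gene 171163) encodes GAT2, a transporter of GABA and taurine. Its Sham values were 6.97, 7.31, 7.43, 7.40 and 7.34. The MCAO values ran from 6.69 through 6.89 to 7.31. Sham 1 was well below the other Sham arrays and MCAO 4 well above the other MCAO arrays. The other 6 MCAO arrays lay below all Sham arrays. The log2 change was -0.39 ± 0.11 (SE; limma adjusted p = 0.0195). Without Sham 3 the call was lost (-0.35, limma adjusted p = 0.0524).

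Slc13a4 (Entrez Gene 503568) encodes a sodium-dependent sulfate transporter. Sham values were 8.44, 8.46, 8.63, 8.65 and 8.97. In MCAO the lowest was 8.11, the median 8.48 and the highest 8.52. Of the MCAO arrays 4 lay inside the Sham range and 3 below it. The change of -0.28 ± 0.11 (SE) did not pass (limma adjusted p = 0.0707).

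Crabp2 and Aldh1a2 belong to the retinoic acid pathway. Crabp2 (Entrez Gene 29563) encodes a binding protein that hands retinoic acid to its nuclear receptor. In Sham its signal was 7.29, 7.27, 7.23, 7.41 and 7.73. In MCAO it ran from 7.67 through 8.27 to 9.04. MCAO 3, 5 and 6 were between 9.01 and 9.04, whereas MCAO 2 and MCAO 4 lay inside the Sham range. The rise was 2.01-fold (log2 change 1.01 ± 0.29, SE; limma adjusted p = 0.0168). The SD was 0.62 in MCAO and 0.20 in Sham, the widest MCAO spread of the 10 genes.

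Aldh1a2 (Entrez Gene 116676) encodes RALDH2, an enzyme that oxidises retinaldehyde to retinoic acid. The Sham arrays gave 7.70, 7.80, 7.90, 7.92 and 7.99. The MCAO arrays ran from 7.84 through 8.21 to 8.66. Of these, 5 lay above all Sham arrays, and MCAO 2 and MCAO 7 lay inside the Sham range. The change of 0.35 ± 0.14 (SE) did not pass (limma adjusted p = 0.0736). Without MCAO 2 it was 0.41 and passed (limma adjusted p = 0.0302), but in 24 of 27 alternative settings it did not.

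**Figure D2:**
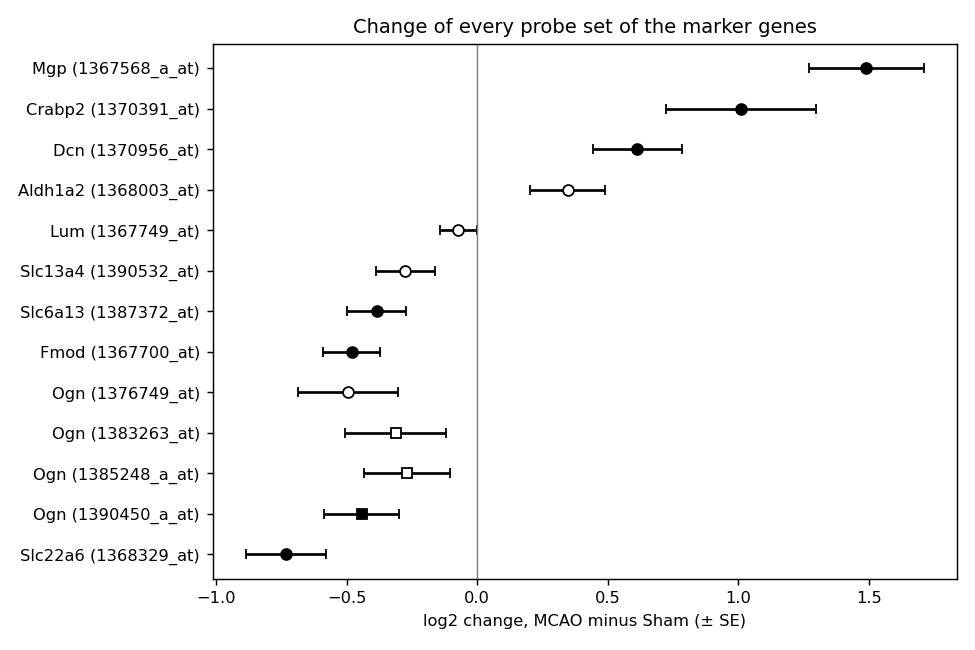
Log2 change (MCAO minus Sham, horizontal axis, ± SE) for every probe set of the 10 genes, with circles for the probe set that stands for its gene and squares for further Ogn probe sets. Filled symbols passed the threshold in the fit of all probe sets, and changes run from -0.73 for Slc22a6 to 1.49 for Mgp.

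Within MCAO the arrays fell into different orders for different genes. MCAO 6 was the highest of the 7 arrays for Dcn, Lum, Mgp, Slc13a4 and Aldh1a2, and MCAO 5 was the highest for Crabp2. The control values of MCAO 6 did not match those of the other arrays, as given below. For Ogn, Fmod, Slc6a13 and Slc22a6 the highest was MCAO 4. MCAO 4 was at the same time the lowest of the 7 for Mgp and Crabp2. MCAO 1 was the lowest for 5 genes and MCAO 2 for the remaining 3. In Sham a single order was more common, with Sham 5 the highest for 7 of the 10 genes and Sham 1 the lowest for 6.

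The log2 differences from the Sham mean show the extent of this. In MCAO 6 Mgp was 2.04 and Crabp2 1.65 above the Sham mean, while Slc22a6 was at -0.68 and Fmod at -0.63. MCAO 4 differed less, with Mgp at 0.88, Crabp2 at 0.28, Slc22a6 at -0.15, Fmod at -0.09 and Ogn at 0.19. The value of Dcn minus that of Ogn within an array, where a change marks unequal change of the pair, ran from -1.24 to -0.70 in Sham. It ran from -0.06 to 0.68 in 6 MCAO arrays and was -0.76 in MCAO 4. This shift follows from the changes of Dcn and Ogn given above and is not a separate result.

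MCAO 4 and MCAO 2 also stood nearer to Sham across the varying genes that were called between the groups. Of the varying genes called, 24.94% in MCAO 4 and 24.99% in MCAO 2 had a value inside the Sham range, against 0.455% to 4.55% in the other 5 MCAO arrays. Without MCAO 4, 7 of the 10 markers passed, and 47.5% of all tested genes did. Without MCAO 2 the count was likewise 7, with 49.9% of all genes called. Calls among all genes thus rose along with those among the markers, from 44.3% on the 12 arrays.

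**Figure D3:**
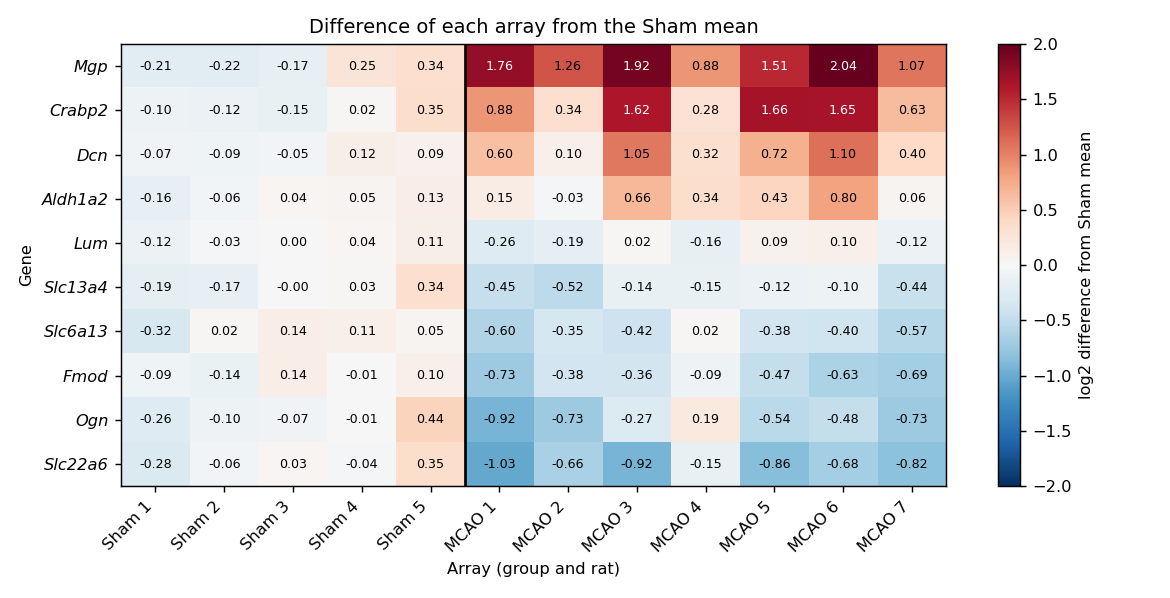
Log2 difference of each array (columns) from the Sham mean of the gene (rows), printed in each cell and coloured from blue (lower) to red (higher). Mgp, Crabp2 and Dcn are positive in all 7 MCAO arrays, and Slc22a6, Fmod and Slc13a4 (which did not pass) are negative in all 7.

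With group means removed, the 10 genes differed in how alike their arrays ran, given here as a description over the same 12 arrays of shared RNA and scaling. By Pearson's r Dcn ran most like Crabp2 (r = 0.91, rho = 0.88), and by Spearman's rho most like Mgp (r = 0.84, rho = 0.92). Slc6a13 and Slc22a6, both transporter genes, had r = 0.83 and rho = 0.81. Genes whose means differed in opposite directions between the groups could still run alike, as did Slc13a4, with a lower mean in MCAO, and Aldh1a2, with a higher mean (r = 0.80, rho = 0.92). For Crabp2 and Slc22a6, also of opposite direction, the values were negative (r = -0.31, rho = -0.29). Within the 7 MCAO arrays Dcn and Crabp2 had r = 0.92, and without MCAO 4 it was also 0.92. For Ogn and Slc22a6 the same measure was 0.77 and, without MCAO 4, 0.17, so their likeness in MCAO rested on that array. Other pairs ran more alike without MCAO 4. Dcn and Ogn went from 0.09 to 0.70, and Ogn and Crabp2 from -0.05 to 0.74. For Crabp2 and Slc22a6 the value went from -0.52 to -0.17. Part of the split in order within MCAO thus also rested on that array.

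The 8 other genes whose arrays ran most like the mean of the 10 markers were Col1a2, Aebp1, Gjb2, Prkd3, Adgra2, Bmp6, Svil and Sft2d2 (r from 0.94 to 0.87, 12 arrays, group means removed). Col1a2, a chain of type I collagen, led them (r = 0.94, rho = 0.84). Gjb2, the gap junction gene connexin 26 (r = 0.90), and Bmp6, a bone morphogenetic protein (r = 0.89), are on the lists of related genes used here. Between the groups Col1a2 did not pass (8.79 ± 0.28 in the 5 Sham arrays and 8.83 ± 0.33 in the 7 MCAO arrays, mean ± SD; adjusted p = 0.891 in limma), and neither did Gjb2 (log2 change 0.11 ± 0.14, SE). Aebp1 rose by 0.32, Bmp6 by 0.39, Prkd3 by 0.19 and Svil by 0.23, the last a call lost under 14 of 27 other settings. With the mean of a gene's probe sets the changes were smaller, at 0.16 for Aebp1, 0.26 for Bmp6 and 0.06 for Prkd3.

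Other genes of the same families were read from lists fixed with earlier results of these data known, and the 10 markers are left out of their counts. In the small leucine-rich proteoglycan family 7 of 10 further genes passed the filter on low values, but Tsku, Omd and Ecm2 did so only through the group in which they were higher. The family is therefore given from the fit with no filter, in which 6 of the 10 varied, 3 rose and 2 fell. In that fit 39.0% of all genes tested, near-constant ones included, were called. Tsku, which encodes tsukushi, had means of 7.12 in MCAO and 6.54 in Sham, a log2 change of 0.59 (limma adjusted p = 0.00559 with no filter). None of its 5 Sham values was above the filter value. Omd, which encodes osteomodulin and lies beside Ogn in GRCr8, had means of 6.68 in MCAO and 7.09 in Sham (log2 change -0.40, limma adjusted p = 0.0296 with no filter), with 3 of 7 MCAO arrays above the filter value. Its call was lost in 6 of 26 other settings. Ecm2 was lower by a similar amount (-0.30, 4 of 7 MCAO arrays above the filter value). Bgn, the biglycan gene, rose by 0.72. Prelp, the neighbour of Fmod, was higher by 0.02, a call lost under each of 3 other scalings of the arrays. Ecm2, Bgn and Prelp were named after their values were seen.

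Of the transporters of brain barriers, 16 further genes passed the filter and 12 varied, of which 4 rose and 4 fell (median 0.12). Among all varying genes 35.2% rose and 34.2% fell. Slc5a3, the myo-inositol transporter gene, rose by 1.15 ± 0.12 (SE; limma adjusted p = 0.000394). Slc15a2, which encodes the peptide transporter PEPT2, fell by 0.78 (SE 0.16, limma adjusted p = 0.00382). Slc22a8, the OAT3 gene beside Slc22a6, fell by 0.55 (SE 0.13, limma adjusted p = 0.00644) and was named after its value was seen. It was among the 3 genes most like Slc6a13 (r = 0.93) and Slc22a6 (r = 0.89) over the 12 arrays. Genes that are not transporters ran as much alike with markers. Coa5, on none of the lists, was more like Slc22a6 (r = 0.91), the endothelial marker Cldn5 had r = 0.92 with Slc6a13, and Pfn1 had r = 0.97 with Dcn. Slc6a20a, a proline transporter gene also named after its value was seen, rose by 1.25.

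In the retinoic acid pathway 16 further genes passed the filter and 11 varied. Of these 4 rose and 6 fell (median log2 change -0.25), against 35.2% higher and 34.2% lower among all varying genes. The counts were the same with no filter. Crabp1, a second cytosolic binding protein gene, rose by 0.58 ± 0.09 (SE; limma adjusted p = 0.00156). Rarb, a retinoic acid receptor gene that is itself induced by retinoic acid, fell by 0.61 (SE 0.06, limma adjusted p = 0.000347). Named after their values were seen, the synthesis gene Rdh10 (0.57) rose, and the degrading enzyme gene Cyp26b1 (-0.62), the receptor gene Rxrg (-0.54) and the synthesis gene Aldh1a1 (-0.36) fell. Aldh1a3, another synthesis gene, passed the filter only through MCAO, where it was higher (1 of 5 Sham arrays above the filter value). Its means were 7.35 in MCAO and 6.54 in Sham, and in the fit with no filter its adjusted p in limma was 0.00842.

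Since Mgp binds bone morphogenetic proteins, that pathway was read too. Of 21 further genes 18 varied, 6 rose and 2 fell (median 0.23), against 35.2% higher and 34.2% lower among all varying genes. Id1, a transcriptional target of the pathway, rose by 0.85 ± 0.13 (SE; limma adjusted p = 0.00153), and Nog, which encodes the inhibitor noggin, fell by 0.58 (SE 0.12, limma adjusted p = 0.00419).

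Other genes known from meningeal and perivascular fibroblasts numbered 37 past the filter, of which 14 were near-constant (SD over the arrays under 0.01) and 23 varied. Of the 23, 6 rose, 3 fell and 14 did not pass, with a median of 0.13. Among all varying genes 35.2% rose and 34.2% fell. With no filter on low values 25 varied, of which 8 rose and 3 fell, and 39.0% of all genes tested, near-constant ones included, were called. Cp, the ceruloplasmin gene, rose by 1.41 ± 0.15 (SE; limma adjusted p = 0.000314). Its size depended on the probe set, with 1.09 and 2.33 on the other Cp probe sets. Ccn3, a secreted matricellular protein gene, fell by 0.999 (SE 0.23, limma adjusted p = 0.00628). The other genes of this list that rose were Cyp1b1 (1.70), Thbd (1.29), Serpinf1 (0.57), Islr (0.54) and Nnat (0.14, a call lost when array medians were made equal), and the others that fell were Gjb6 (-0.96) and Vtn (-0.65). The fibroblast collagen genes did not pass and differed in size. Col3a1 had a log2 change of 0.61 ± 0.23 (SE; limma adjusted p = 0.053), and Col1a1 of -0.04 ± 0.13 and Col6a1 of -0.04 ± 0.15 (SE). All of these except Cp and Ccn3 were named after their values were seen. Which cell types gave the signal of the genes on this list, and so their changes, was not tested.

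**Figure D4:**
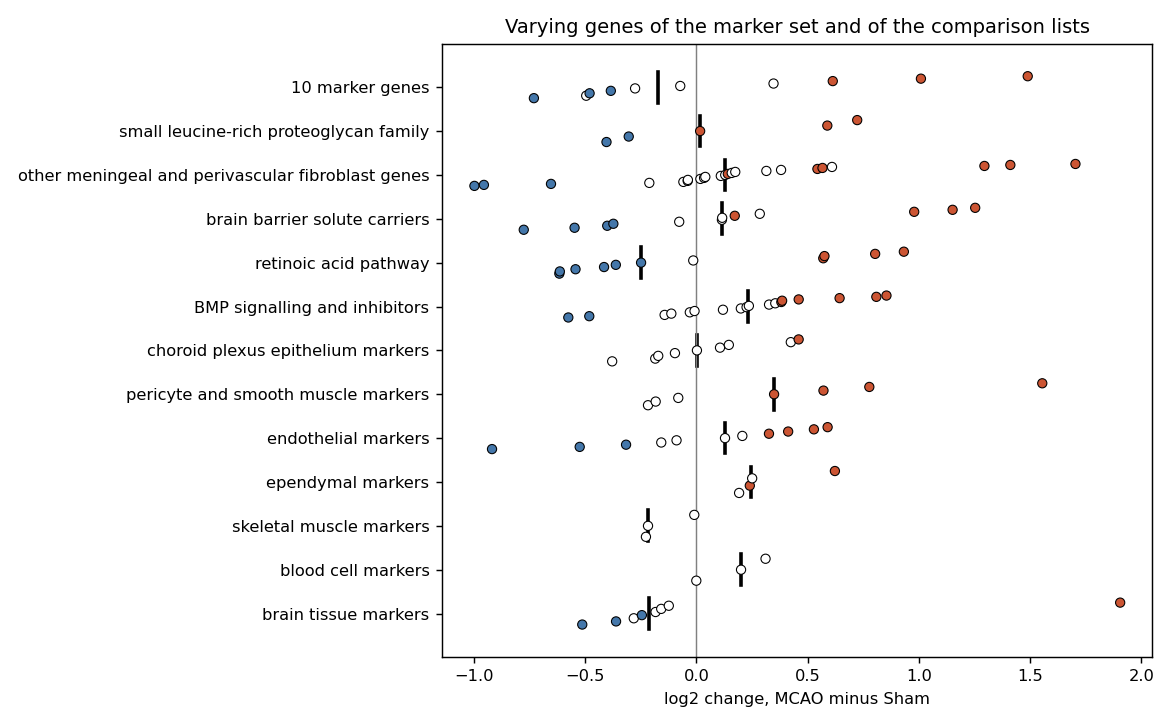
Log2 change (MCAO minus Sham, horizontal axis) of each varying gene in the set of 10 markers and in the comparison lists (vertical axis), orange for genes that rose, blue for genes that fell and white for genes that did not pass. The thick bar is the median of a list, from -0.25 for the retinoic acid pathway to 0.35 for pericyte and smooth muscle markers.

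Markers of other cell types that could share these transcripts were read on the same arrays. For the counts in these lists, 35.2% of all varying genes rose and 34.2% fell. Of 14 choroid plexus markers past the filter 9 varied and 1 of them, Aqp1, passed (0.46 ± 0.12, SE; limma adjusted p = 0.0112), with 0.87 on its other probe set. The summed level of that list (log2 of the summed linear signals of all its genes past the filter, near-constant ones included) overlapped between the groups. It was 12.70 to 13.61 in MCAO and 13.14 to 13.64 in Sham. Of 14 pericyte and smooth muscle markers 7 were near-constant and 7 varied. Of the 7, 4 rose, against 35.2% of all varying genes, namely Tagln (1.56), Des (0.78), Mcam (0.57) and Anpep (0.35). Tagln, Mcam and Anpep were named after their values were seen. Myh11 (-0.22), Rgs5 (-0.18) and Abcc9 (-0.08) were lower without passing. In this list 0 fell in limma (1 at an unadjusted p under 0.05, by limma and by the exact permutation test, and 1 called after quantile normalization). In the same list the summed level was 11.27 to 11.70 in MCAO and 11.04 to 11.26 in Sham. That sum includes Tagln, with means of 9.09 in MCAO and 7.53 in Sham, so it does not show a rise shared by the list. Endothelial markers went both ways, with 4 higher (Esam, 0.59) and 3 lower (Slco1a4, -0.92) of 11 and summed levels of 11.73 to 12.01 against 11.81 to 12.05. Of 4 varying ependymal markers 2 rose (Rarres2, 0.62). Of 9 skeletal muscle markers 6 were near-constant, and the 3 that varied were Tnnc2, Pvalb and Myh1. Of 6 blood markers 3 varied. Among these varying markers of muscle and blood 0 passed in limma. At an unadjusted p under 0.05 there was 1 for muscle, Pvalb (-0.22), and 0 for blood, by limma and by the exact permutation test. The summed levels of both lists overlapped between the groups. Whether the signal of the muscle list came from muscle was not tested. Brain markers were high on every array (summed level 15.34 to 15.42), with Gfap up by 1.91 and Snap25 down by 0.25. Part of the steadiness of that sum comes from near-constant values such as Mbp, at 13.62 in both groups. No listed marker was at 0, since array signals have no true zero. The part of these cell types in the changes of the 10 genes was not tested.

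Across the series, array medians lay between 7.23 and 7.28, and 62.5% of the probe sets other than controls were near-constant in the deposited values. The beta-actin controls, whose 3′ over 5′ signal is a sign of RNA integrity, had a log2 difference between the 3′ and 5′ probe sets of 1.27 to 1.47 in 6 MCAO arrays and of 1.40 to 1.46 in the Sham arrays. MCAO 6 was left out of that check because 0 of its 40 near-constant control values matched the other arrays (within 0.05). In each of the other arrays all 40 matched. MCAO 6 was kept in the tests. Without it 3 markers passed as higher and 3 as lower, and 38.1% of all tested genes were called. The part of RNA integrity in the results was not tested. Nothing in the labels places rats in batches. Precision is limited by the number of arrays. A limma p-value sets the difference between group means against the spread between arrays (1 per rat), adjusted with the help of all genes tested.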

How the data were processed

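Total RNA (TRIzol, then an RNeasy column; 100 ng labelled with biotin, per the labels' protocols) from 12 rats was read on 1 array each. The authors deposited a table of 31099 probe sets, read here as log2 values because they span the range usual for that scale, although the table names no log base. How the authors corrected background, summarised probes and normalized arrays is not given in the sources used.

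Probe sets were named from the platform annotation (20826 with 1 gene, 436 with several, 9780 with none, 57 controls), and 20758 symbols were updated through RefSeq gene IDs. A probe set was kept if at least 5 arrays exceeded 6.61, the 25th percentile of all values. The one with the highest mean stood for its gene, and values were not rescaled. The test of MCAO against Sham used limma 3.58.1 under R 4.3.3 (two-sided, eBayes with a trend on lmFit, adjusted by Benjamini-Hochberg over 12153 genes, threshold 0.05), and the procedure was tested on simulated data. In the simulation 30% of genes changed by 0.25 (log2) were called, 78% of those changed by 0.5, 94% by 1 and 90% by 2. Of its 155 calls 8 were false. It changed 50 genes at each size, with noise independent between genes, so it does not give the recovery in these data. Near-constant means an SD under 0.01. The members and lists were chosen with earlier results of these data known. Named genes were the members, the strongest called gene of each list in each direction, and the 8 genes most like the members' mean. Alternatives covered scaling, filter, probe set choice, test, replicate block and leaving out each array.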

Additional observations from a re-analysis of the deposited data

Results flagged for a closer look

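Of 70 groups of values (35 genes in MCAO and in Sham), 8 held an array whose gap to the next value was a large share of the group's range (Dixon's 95% limit). In independent groups chance alone gives about 1 in 20. These groups share the same arrays, and the genes were partly picked by their values, so their count cannot be set against that rate. MCAO 4 was the high array in 4 of them: Slc6a13 (7.31, next 6.94), Slc22a6 (7.27, next 6.76), Ccn3 (10.11, next 9.18) and Slco1a4 (9.74, next 8.93). In Sham, Slc6a13 was low in Sham 1 (6.97, next 7.31) and Slc15a2 was low in Sham 5 (9.15, next 9.31). Nog was high in Sham 1 (8.86, next 8.64), and Aqp1 was high in Sham 5 (7.68, next 7.47).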

How the results depend on the processing

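The direction of all 10 markers was kept under all 27 alternatives, and of 270 values 256 stayed on the same side of the threshold, 5 lost and 9 gained a call. Mgp passed in every one (log2 change 1.40 to 1.63). With the replicate block, in which MCAO 6 and 7 have no partner, 1 marker passed as higher (Mgp) against 3, and 3128 genes against 5386. Dcn (adjusted p = 0.0707), Fmod (0.0511), Slc22a6 (0.0504) and Crabp2 (0.0624) then missed the threshold, and Slc13a4 passed (0.0376). The labels tie no numbers together. Deviations of same-numbered arrays correlated at 0.32, 0.54, -0.33, -0.05 and 0.16. The best match was the array of the same number for numbers 1 and 2, and another array for 3, 4 and 5. So few correlations cannot decide whether arrays were paired, and the numbers were not taken as pairs because the labels give no tie. With near-constant probe sets left out, 5 markers passed as lower against 3 and 4 as higher against 3, while 73.2% of all tested genes were called against 44.3%. Leaving out single arrays gave 4290 to 6068 genes called, 3 to 4 markers higher and 2 to 4 lower. Col1a2, which was not called, changed sign with the mean of probe sets (-0.082) and without MCAO 3, MCAO 6, Sham 1 or Sham 2, and ranged from -0.0541 to 0.1116 with single arrays left out. The cause was not tested. Of 673 values of the 25 other named genes 643 kept direction and call. Cp (2.33 against 1.41) and Aqp1 (0.87 against 0.46) moved by over 1.5 times with the probe set of largest variance. No measure of signal over background was available to bound the low values of Slc22a6, Slc6a13 and Fmod.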
